A study of Mus musculus with 15 samples.

Results

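The genes of the proteasome, the protease complex that degrades proteins tagged with ubiquitin, were followed across cerebella of 3 mouse genotypes. They were taken as every row of the count tables whose symbol is Psm, a letter from a to g, and a number, which gave 48 of 24421 genes. The 3 subunits of the immunoproteasome among them, Psmb8, Psmb9 and Psmb10, were set apart. All mice were of the FVB strain, and each genotype had 5 libraries. Wild-type mice carried no transgene. ATXN1[82Q] mice carried ATXN1 with a tract of 82 glutamines, the kind of expansion that causes spinocerebellar ataxia type 1. Mice of the third group carried ATXN1[82Q]V591A;S602D, the same tract with substitutions V591A and S602D, called the substituted transgene here. The Pcp2 promoter directs both transgenes to Purkinje cells, while the RNA came from cerebellar tissue with all its cell types. The sources used here give no age and no number of transgenic lines. Whether libraries stem from different mice is not said in the labels, so the p-values describe library-to-library spread, which may be technical.

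The proteasome has a barrel-shaped core of stacked alpha and beta rings, with the proteolytic sites of Psmb5, Psmb6 and Psmb7 inside. A regulatory particle, made of a base with ATPases and a lid, receives and unfolds ubiquitin-tagged proteins. In immune cells, or after interferon, Psmb8, Psmb9 and Psmb10 can replace Psmb5, Psmb6 and Psmb7 to form the immunoproteasome, which produces peptides for antigen presentation. Neurons express mostly the constitutive form, and inclusions of expanded ATXN1 in Purkinje cells are known to stain for ubiquitin and proteasome subunits.

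Counts on genes ran from 36467948 to 42818401 per library. Of the 48 members, 47 had enough counts to be tested, among 15843 genes. Psmb11, the thymus-specific beta subunit, was removed with 0 to 11 counts per library. Choroid plexus expresses Ttr, whose level ran from 4.26 to 4869 CPM (read counts of a gene relative to the library's total, on the usual CPM scale). It stayed under 100 CPM in 3 libraries of wild type and in 2 of each transgenic group. Markers of brainstem neurons, as a mean log2 level relative to wild type, stood at 1.1 and 1.8 in replicates 2 and 5 of ATXN1[82Q] and between -0.448 and 0.605 in the other 13 libraries. Purkinje cell markers were present in every library, with a summed level of 8297 to 9477 CPM in wild type, 2956 to 3604 in ATXN1[82Q] and 5841 to 8070 with the substituted transgene.

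In wild type, transcripts of the rings, base and lid ran from 10.4 (Psmd11) to 118 (Psmc5) on a scale that allows for gene length. Levels are compared between genes as CPM per kb of exon, with length counted over the exons of all annotated transcripts of a gene. The order of genes depends on this choice. The alpha ring genes ran from 23.1 for Psma2 to 71.6 for Psma6, and the beta ring genes from 24.6 for Psmb1 to 60.7 for Psmb6. The ATPases of the base had the widest range of the structural groups, from 20.6 for Psmc2 to 118 for Psmc5, the highest member on this scale. In CPM, with no allowance for length, Psmd2 was highest (214, against 164 for Psmc5). Lid genes ran from 10.4 for Psmd11 to 44.3 for Psmd7. Base assembly chaperones (3.33 to 8.44), core assembly chaperones (3.28 to 11.4) and the inhibitor Psmf1 (5.44) were lower on this scale than every gene of the core rings and of the ATPases. In CPM this did not hold, since the chaperone Psmd5 (51.3) was above Psmb5 (23).

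The immunoproteasome subunits did not stand at one level. Psmb10 was at 9.42 ± 0.229 CPM per kb in wild type (SD, n = 5), next to Psme1 at 9.32 ± 0.881. Psmb8 was at 0.504 ± 0.0629 and Psmb9 at 0.187 ± 0.0695. Psma8, an alpha subunit of the testis, was at 0.0993 ± 0.0526, so that Psmb9 and Psma8 did not differ beyond their spread. In the full order of 48 levels, 19 of 47 neighbouring pairs were separated by more than the sum of their SDs. Pseudogenes and neighbours bear on some levels: 54.1% of the 50-base words of Psmb5, 50% of those of Psma5 and 28.3% of those of Psme2 also occur in transcripts of other genes, so reads from them could have been assigned elsewhere or discarded.

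**Figure D1:**
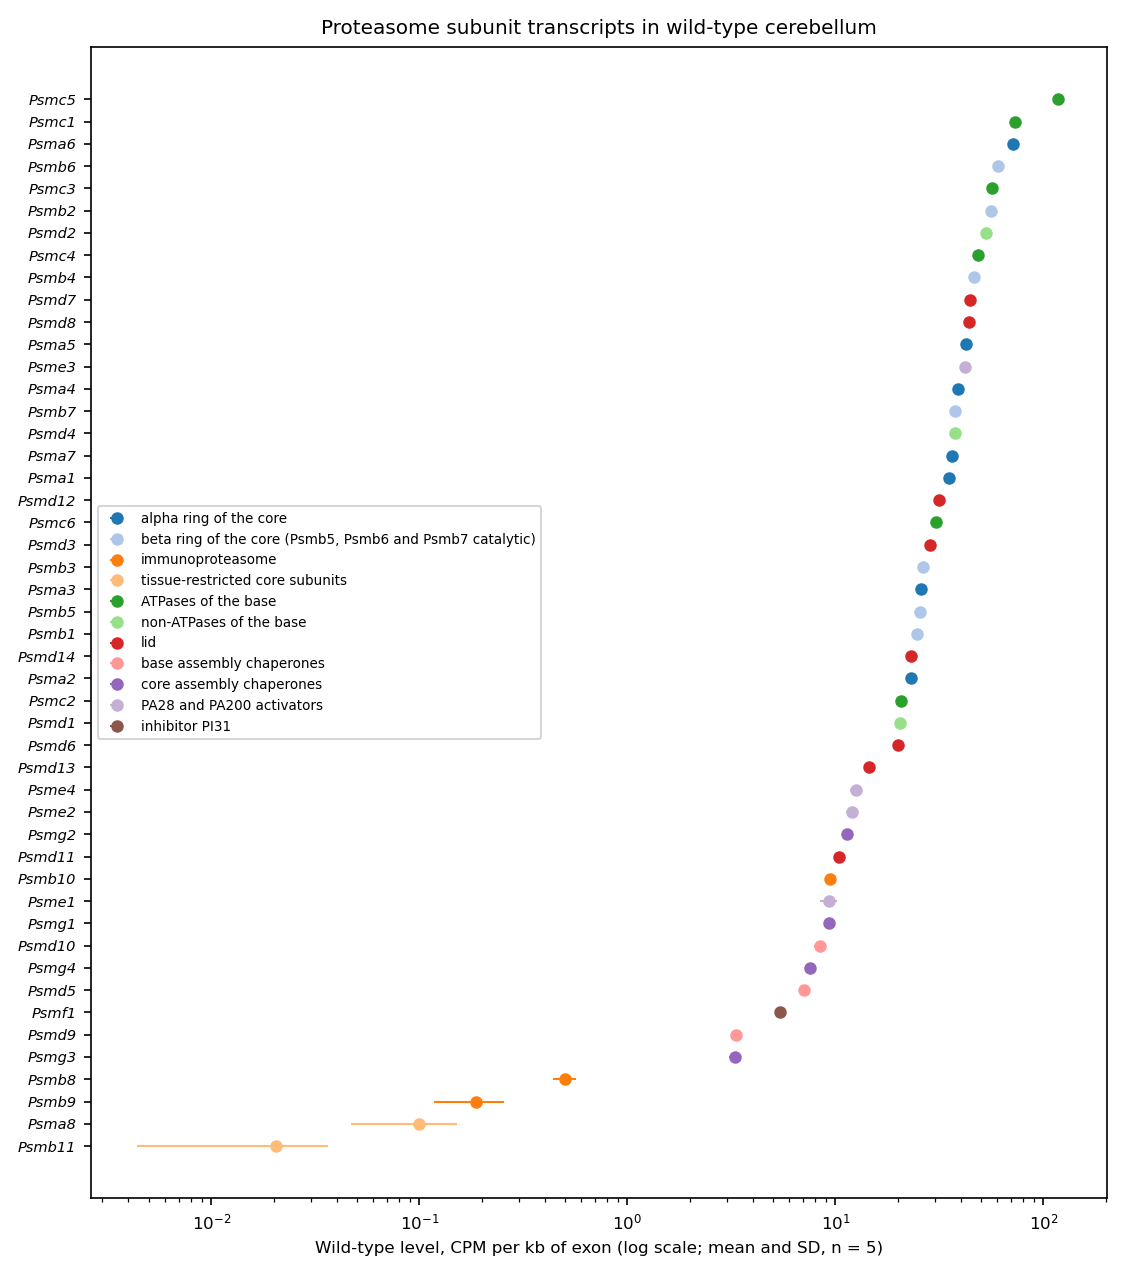
Level of the 48 proteasome genes in wild-type cerebellum, as mean CPM per kb of exon on a log axis, with the SD over 5 libraries as bars and the role of each gene as colour. Psmc5 is at the top with 118 CPM per kb, most genes of the core and regulatory particle lie above 20, and Psmb8, Psmb9, Psma8 and Psmb11 lie below 1.

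Tested members other than Psmb8, Psmb9 and Psmb10 are called constitutive here. The label is a grouping and does not say that a gene cannot be induced. With Psma8 left out, these genes varied little between libraries of one genotype. Over the 43 constitutive members other than Psma8, the median coefficient of variation of CPM was 3.05% (wild type), 3.58% (ATXN1[82Q]) and 3.73% (substituted transgene). Over all genes tested it was 7%, 7.35% and 6.59%. The coefficient depends on counting depth, and most members are well counted, so this comparison is a description.

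In ATXN1[82Q] cerebella against wild type, 2 of the 3 immunoproteasome genes and 1 of the 44 other tested members rose. The immunoproteasome genes were Psmb8, which rose 1.55-fold, and Psmb10, which rose 1.18-fold. The other member was Psme1, a subunit of the PA28 activator, which rose 1.2-fold. With Psma8 and Psme1 left out, 0 of the 42 remaining constitutive members were called. No member fell. By the edgeR quasi-likelihood test, with adjustment over all 15843 genes and calls at an adjusted p under 0.05, 3 of 47 members were higher (6.38% called), where 31.5% of all genes were called (16.6% higher and 14.9% lower). Of genes in the range of mean CPM of the constitutive members other than Psma8 (4.09 to 208), 31.5% were also called. That wide range held 11034 of the 15843 genes. At an unadjusted p under 0.05, 9 members (4 higher and 5 lower) stood against 41.9% of all genes, and DESeq2 called 1 member lower, Psme4.

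Psmb8 encodes the inducible counterpart of Psmb5. Its level in wild-type replicates 1 to 5 was 1.61, 1.69, 1.44, 1.76 and 2.01 CPM. In ATXN1[82Q] it was 2.34, 2.62, 3.47, 2.42 and 2.37 CPM. Each ATXN1[82Q] library was above each wild-type library, a separation seen in either direction for 19.2% of all genes. Replicate 3 of ATXN1[82Q] was the highest for Psmb8. The log2 fold change was 0.63 (SE 0.137, 95% interval 0.343 to 0.921, edgeR adjusted p = 0.00211), and without replicate 3 of ATXN1[82Q] it was 0.51. The values rest on 53 to 145 counts per library.

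Psmb10 encodes the inducible counterpart of Psmb7. It stood at 16.3, 16.6, 15.6, 15.7 and 16.1 CPM in wild type and at 18.4, 18.6, 17.7, 18.7 and 21.3 CPM in ATXN1[82Q]. The groups did not overlap, as was the case for 19.2% of all genes in this comparison, and the difference was smaller than that of Psmb8 on the log2 scale (0.24, SE 0.0705, edgeR adjusted p = 0.0164). Its call was lost without replicates 2 and 5 of ATXN1[82Q], the libraries with high brainstem markers (log2 fold change 0.18, adjusted p = 0.109). It was also lost with libraries of Ttr under 100 CPM alone (0.17, adjusted p = 0.156).

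Psmb9 encodes the inducible counterpart of Psmb6 and was the least abundant of the 3. It stood at 0.553, 0.725, 0.84, 0.328 and 0.982 CPM in wild type and at 1.06, 1.15, 0.98, 0.967 and 1.04 CPM in ATXN1[82Q]. Wild-type replicate 5 lay within the ATXN1[82Q] range, and the other wild-type libraries lay below it. With 13 to 47 counts per library in these groups, its log2 fold change of 0.6 (SE 0.235) did not pass (edgeR adjusted p = 0.0606). It passed without wild-type replicate 5 (0.77, adjusted p = 0.0204).

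**Figure D2:**
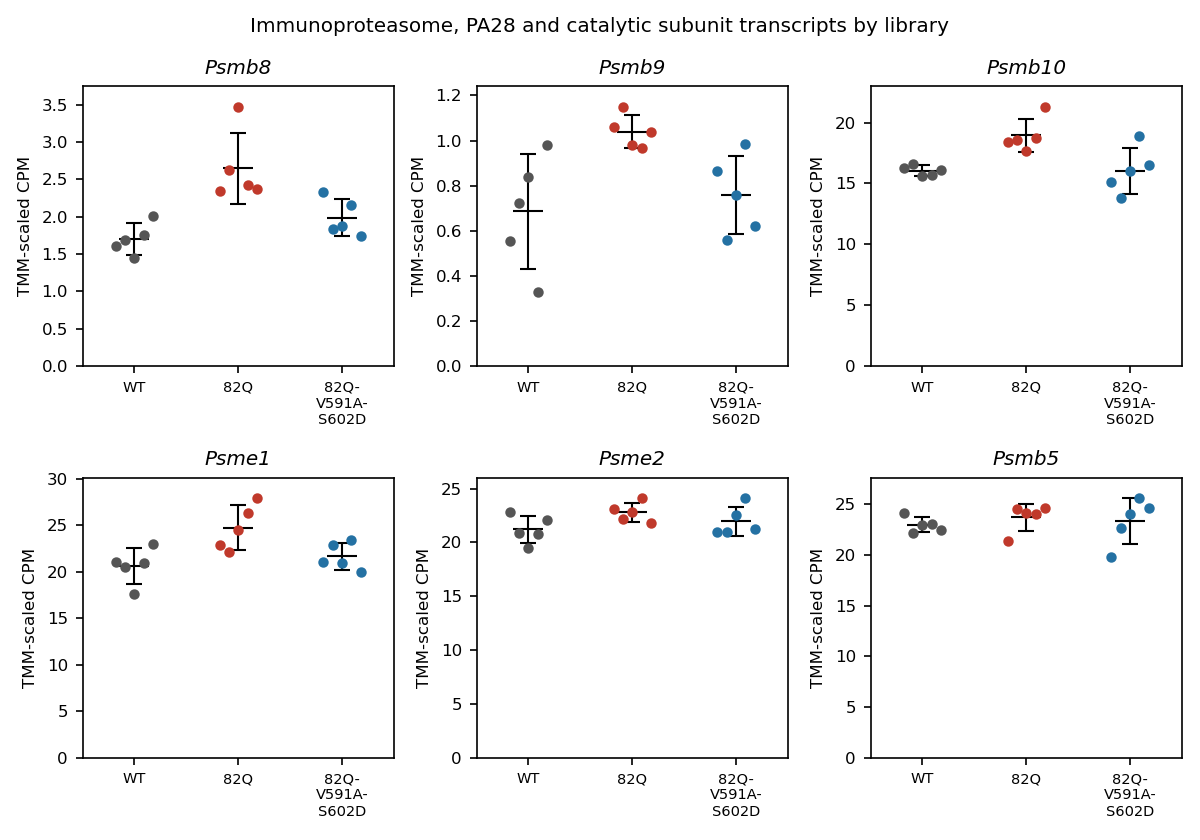
TMM-scaled CPM of Psmb8, Psmb9, Psmb10, Psme1, Psme2 and Psmb5 in each library, by genotype (5 points each, horizontal bar for the mean, error bar for the SD; axes start at 0). Psmb8 and Psmb10 in ATXN1[82Q] lie wholly above wild type (2.34 to 3.47 against 1.44 to 2.01 CPM, and 17.7 to 21.3 against 15.6 to 16.6 CPM), while Psmb5 overlaps in all 3 genotypes. Between ATXN1[82Q] and wild type, 19.2% of all genes do not overlap in either direction.

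The PA28 and PA200 activators, caps that open the core without ubiquitin, differed among themselves. Psme1, which forms PA28 with Psme2, stood at 21, 20.5, 17.6, 20.9 and 23 CPM in wild type and at 22.9, 22.1, 24.5, 26.3 and 27.9 CPM in ATXN1[82Q]. Wild-type replicate 5 lay within the ATXN1[82Q] range (log2 fold change 0.26, SE 0.0743, edgeR adjusted p = 0.0118), and the call was lost with libraries of Ttr under 100 CPM alone (0.27, adjusted p = 0.0581). Psme2 overlapped between genotypes (0.1, adjusted p = 0.148), and 28.3% of its 50-base words occur in other transcripts. Psme3, the nuclear PA28 subunit, had a log2 fold change of -0.05 (adjusted p = 0.139).

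Psme4, the PA200 activator of the nucleus, stood at 106, 107, 109, 110 and 93.3 CPM in wild type and at 99.1, 101, 101, 93.6 and 85.5 CPM in ATXN1[82Q]. Wild-type replicate 5 was lower than 4 of the 5 ATXN1[82Q] libraries, and the log2 fold change of -0.13 did not pass (SE 0.0477, edgeR adjusted p = 0.0522). Without that library Psme4 was called lower, together with the lid gene Psmd11. Psme4 was also called lower without ATXN1[82Q] replicate 2 or 3.

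The core and regulatory particle held no call in this comparison, where 31.5% of all genes were called. Over the 14 constitutive ring subunits and the 17 subunits of base and lid, log2 fold changes ran from -0.09 to 0.06, and all 31 intervals lay between -0.174 and 0.176. Of the 31, 4 were lower and 0 higher with p below 0.05 before adjustment, against 41.9% of all genes in either direction, and DESeq2 called none. Psmd11, a lid subunit, was at 68.9, 68.1, 67, 65.3 and 61.6 CPM in wild type and at 62.9, 63.5, 63.8, 62.7 and 57.5 CPM in ATXN1[82Q] (log2 fold change -0.09, edgeR adjusted p = 0.082). Its lowest wild-type library lay within the ATXN1[82Q] range, and the other 4 lay above it.

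The ubiquitin receptor of the base, Psmd4, stood at 107, 101, 105, 107 and 106 CPM in wild type and at 100, 102, 101, 102 and 101 CPM in ATXN1[82Q] (log2 fold change -0.05, edgeR adjusted p = 0.0905). Psmd2, the scaffold of the base, stood at 214, 223, 212, 214 and 207 CPM in wild type and at 202, 209, 209, 206 and 199 CPM in ATXN1[82Q] (-0.06, adjusted p = 0.106). Psma1, of the alpha ring, stood at 107, 102, 105, 104 and 102 CPM in wild type and at 93.9, 104, 101, 102 and 93.2 CPM in ATXN1[82Q] (-0.07, adjusted p = 0.114). In each of these 3 genes the libraries of both genotypes overlapped. Psmd4 was called lower without wild-type replicate 2. The ATPase gene Psmc2 was called lower without ATXN1[82Q] replicate 3, where it was higher than in the other 4 libraries of that group.

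The median log2 fold change of the 44 constitutive members was -0.03, against 0.01 over all genes, with 20 above and 24 below 0. This sign depends on the scaling: with library totals in place of TMM factors the median was 0.05, with 37 above and 7 below 0, while the median of all genes moved to 0.08. The intervals of 43 of the 44 lay within 1.5-fold. That of Psma8, at 4 to 18 counts per library in these groups, did not.

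**Figure D3:**
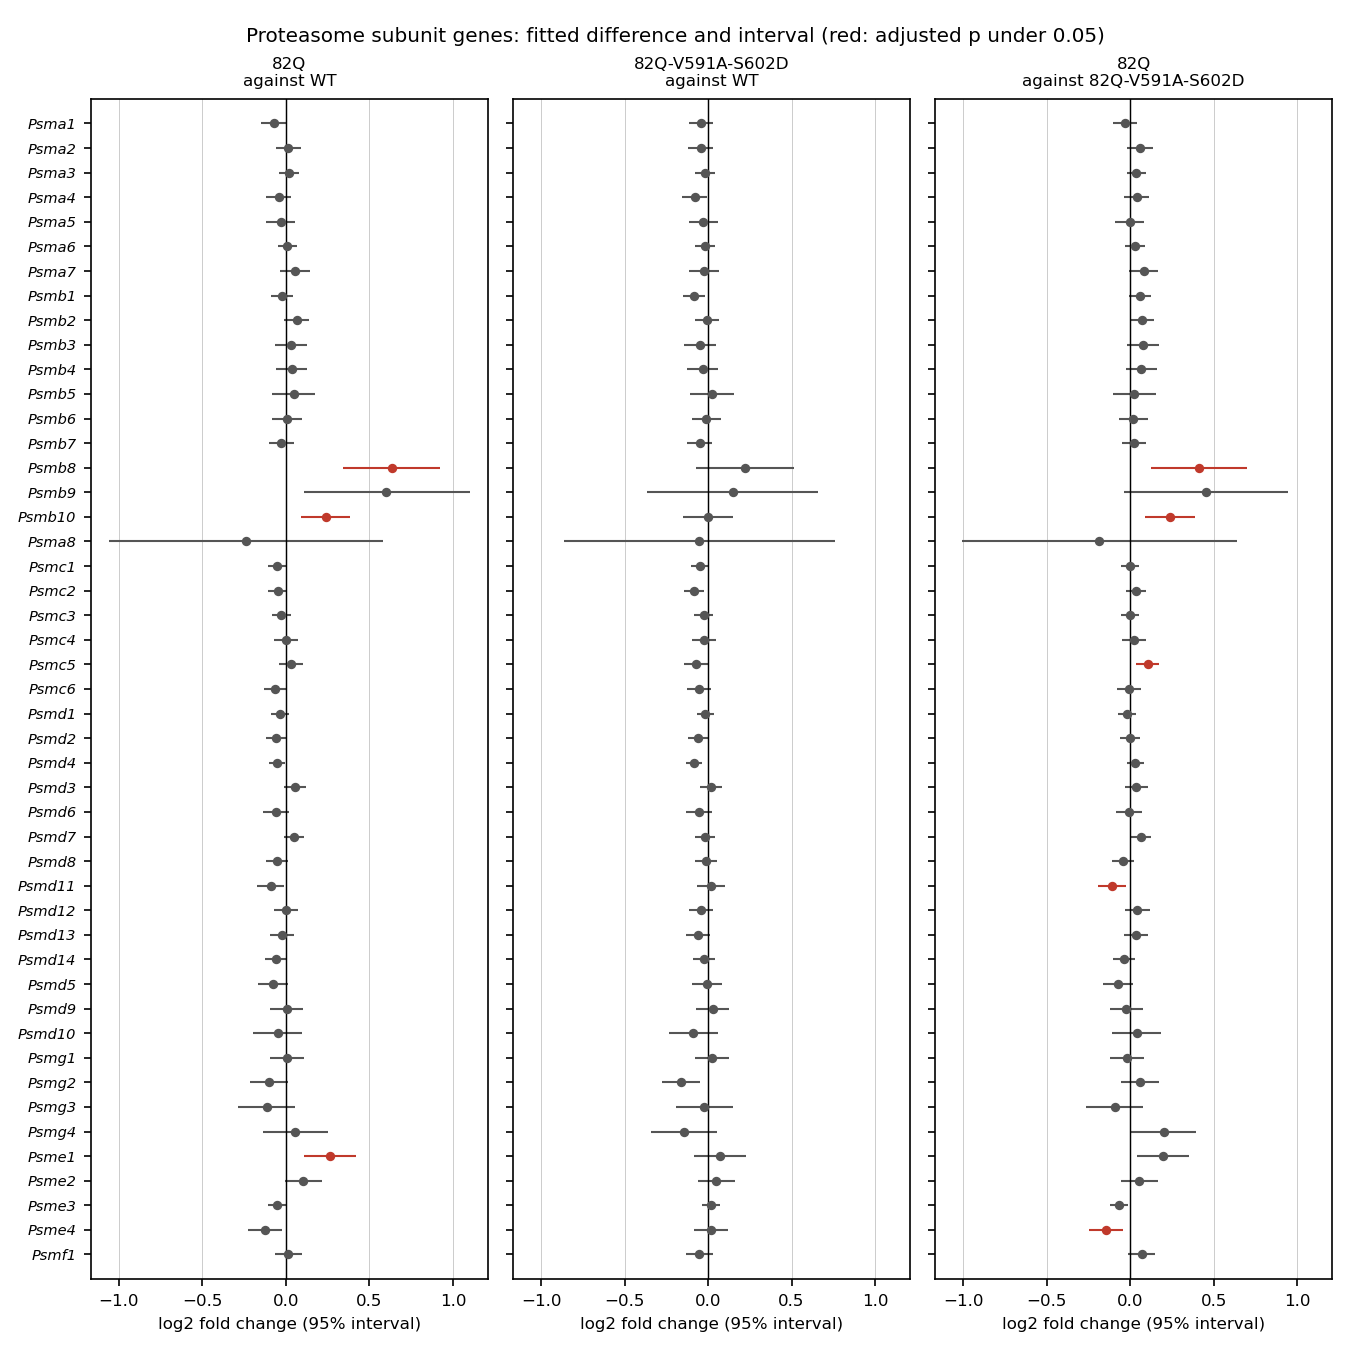
Log2 fold change of the 47 tested proteasome genes in the 3 comparisons, with 95% intervals from the edgeR fit; red marks an adjusted p under 0.05, and genes are ordered by role. In ATXN1[82Q] against wild type the red genes are Psmb8 (0.63), Psmb10 (0.24) and Psme1 (0.26), and the 31 subunits of the rings, base and lid lie between -0.09 and 0.06.

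Relative to its constitutive counterpart, each inducible subunit had a higher mean in ATXN1[82Q]. The ratio of Psmb8 to Psmb5, as CPM per kb, averaged 1.97% ± 0.277 in wild type (SD, n = 5 here and below), 2.96% ± 0.503 in ATXN1[82Q] and 2.29% ± 0.48 for the substituted transgene. Its ranges of 1.66% to 2.38% in wild type and 2.56% to 3.83% in ATXN1[82Q] did not overlap, while the substituted libraries, at 1.88% to 3.12%, overlapped both. The ratio of Psmb10 to Psmb7 was 25.2% ± 1.53, 30.3% ± 2.44 and 26.1% ± 2.88. Wild-type replicate 2 at 27.8% lay above ATXN1[82Q] replicate 3 at 27.5%, so these groups overlapped. The ratio of Psmb9 to Psmb6 was 0.306% ± 0.107, 0.467% ± 0.0541 and 0.343% ± 0.0742. Here too the groups overlapped, with wild-type replicate 5 at 0.414% above ATXN1[82Q] replicate 4 at 0.411%. Substituted replicates 1 (0.415%) and 4 (0.421%) also lay within the ATXN1[82Q] range. The Psmb5 level may lose reads to pseudogenes, which would affect the ratio of Psmb8 to Psmb5 in all 3 genotypes. The percentages also rest on the exon lengths used, 3381 bases for Psmb8 and 899 for Psmb5.

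**Figure D4:**
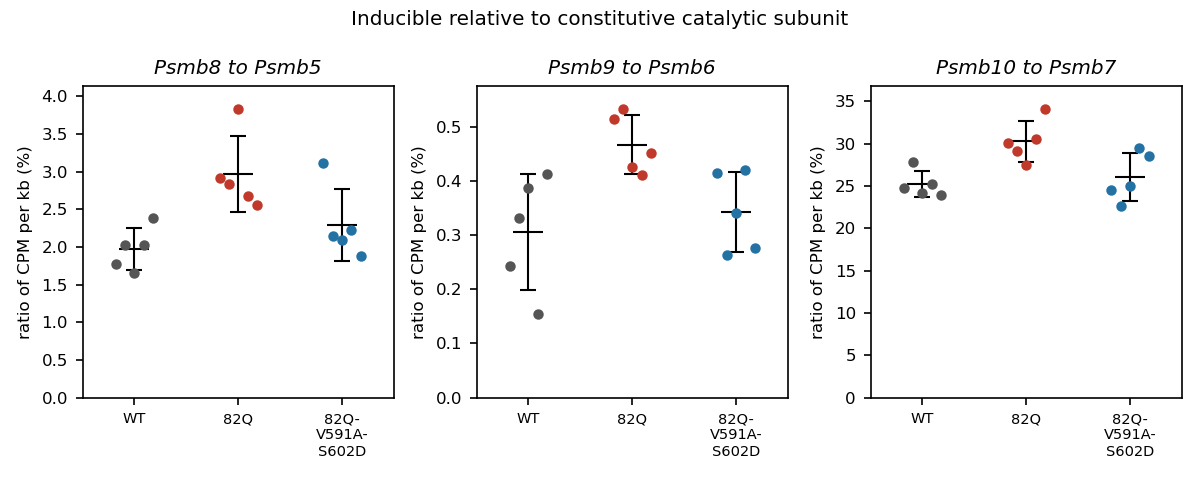
Ratio of each inducible catalytic subunit to its constitutive counterpart, as percent of CPM per kb of exon, in each library by genotype (5 points each, horizontal bar for the mean, error bar for the SD; axes start at 0). The ratio of Psmb8 to Psmb5 is 2.56% to 3.83% in ATXN1[82Q] and 1.66% to 2.38% in wild type.

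Markers of microglia, which express immunoproteasome genes, were higher in ATXN1[82Q] as a group, as were Psmb8 and Psmb10. All 15 listed microglial markers were higher in ATXN1[82Q] against wild type (median log2 fold change 0.9), and their summed level was 203 to 236 CPM in wild type, 377 to 418 in ATXN1[82Q] and 216 to 255 with the substituted transgene. Within ATXN1[82Q] the order of libraries differed. Replicate 1 had the highest microglial sum (418 CPM) and the lowest Psmb8 (2.34 CPM). Replicate 3, highest in Psmb8 (3.47 CPM), had a sum of 379 CPM. In wild type, replicate 5 was highest and replicate 3 lowest in both the sum and Psmb8, while Psmb10 was highest (16.6 CPM) in replicate 2, with a sum of 205 CPM. Among substituted libraries, replicate 5 had the lowest sum (216 CPM) and the lowest Psmb8 (1.74 CPM). Substituted replicate 2 had the highest sum (255 CPM) but the lowest Psmb9 (0.561 CPM) and Psmb10 (13.8 CPM). In bulk tissue, more cells of a type and more RNA per cell cannot be told apart, and the part of microglia in the immunoproteasome values was not tested. Markers of other cells were also called in ATXN1[82Q] against wild type, where 16.6% of all genes were higher and 14.9% lower. Of 10 each, 7 oligodendrocyte markers were higher (median 0.3), 5 Bergmann glia and astrocyte markers were higher and 2 lower (0.15), 3 endothelial and mural markers were higher (0.11), and 7 granule cell markers were lower (-0.19). All 10 Purkinje cell markers were lower (-1.17), 2 of 10 choroid plexus and ependyma markers were higher (1.11), and 2 of 6 tested brainstem markers were higher (0.51). Their part was not tested. Of 8 lymphocyte markers 7 were removed by the count filter, and Cd8a was at 0 in 13 of 15 libraries. The summed level of the 8 was 0.882 to 1.38 CPM in wild type, 1.1 to 2.03 in ATXN1[82Q] and 0.855 to 1.31 with the substituted transgene, and its part was not tested.

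The called members Psmb8, Psmb10 and Psme1 lie on 3 chromosomes. Psmb8 (chr17:34197721-34201454, plus strand, GRCm38) and Psmb9 (chr17:34181987-34187764, minus strand) lie in the major histocompatibility region. Psme1 (chr14:55578123-55581529, plus strand) lies next to Psme2 (chr14:55587441-55591113, minus strand), and Psmb10 is at chr8:105935735-105938444 on the minus strand. Exons of Psmb8 overlap an antisense gene, Gm20496, over 14.7% of their length, and those of Psmb9 overlap Tap1 over 5.79%. How the counting treated strand is not stated, so reads of these pairs may not be told apart.

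Start-site regions from RefSeq (GRCm38.p6, 250 bases before to 50 after the start) were found for 40 of the 48 members. Both strands were searched for the interferon response element (GAAANNGAAA) and for the antioxidant response element (TGACNNNGC), through which NFE2L1 raises proteasome genes. The interferon response element was found in 5 of 40 members (12.5%), against 3.99% of 27025 genes, in Psmb3, Psmd4, Psmd9, Psme1 and Psmg4. Psmb8, Psmb9 and Psmb10 were among the genes searched, and 0 of these 3 held it, against 5 of 37 other members. The antioxidant response element was in 6 of 40 (15%, against 14%). These are matches of letters, not tested as binding sites.

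The 5 windows below are 30 bases each, on the strand of the gene and with the match in capitals. They are shown because Psme1 rose in ATXN1[82Q], Psmb5 and Psmb6 are constitutive catalytic genes, and Psmd4 and Psme4 had among the smallest p-values for lower levels. Psme1 (chr14:55578493-55578522, plus strand) and Psme4 (chr11:30771758-30771787, plus strand) overlap an annotated untranslated region of a GENCODE transcript. Psmd4 (chr3:95042675-95042704, minus strand), Psmb5 (chr14:54618023-54618052, minus strand) and Psmb6 (chr11:70525338-70525367, plus strand) do not.
Psme1, interferon response element on the opposite strand: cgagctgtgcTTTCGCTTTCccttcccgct
Psmd4, interferon response element on the opposite strand: ataaccaaccTTTCCATTTCtgtggcgcct
Psmb5, antioxidant response element: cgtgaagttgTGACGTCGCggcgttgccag
Psmb6, antioxidant response element: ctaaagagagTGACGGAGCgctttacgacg
Psme4, antioxidant response element on the opposite strand: cgctgcggctGCAGCGTCAccagaagagcc

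With the substituted transgene against wild type, no proteasome gene passed in either direction. The intervals of Psmb8 and Psmb9 were wide, and that of Psmb9 holds its log2 fold change in ATXN1[82Q] (0.6). Both this comparison and the one before use the same wild-type libraries. Psmb8 stood at 2.33, 1.83, 1.88, 2.15 and 1.74 CPM in the substituted libraries, where 3 of 5 lay within the wild-type range (log2 fold change 0.22, 95% interval -0.0736 to 0.514, edgeR adjusted p = 0.575). Psmb9 stood at 0.866, 0.561, 0.757, 0.985 and 0.623 CPM (0.15, interval -0.363 to 0.657, adjusted p = 0.867). Psmb10 stood at 15.1, 13.8, 16, 18.9 and 16.5 CPM, with a log2 fold change of -0.00104 (interval -0.151 to 0.149) and replicate 4 as high as the ATXN1[82Q] libraries. Its replicate 4 was also the substituted library with the highest mean of brainstem markers (0.605; by summed level it was not the highest) and of choroid plexus markers (3), with Ttr at 3545 CPM. The part of these tissues was not tested.

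By edgeR 0 of 47 members were called with the substituted transgene, where 1.41% of all genes were called (0.208% higher and 1.2% lower). Before adjustment 7 members had p below 0.05, all lower, against 11.7% of all genes, and DESeq2 called 1 lower, Psmd4. Psmd4 stood at 98.3, 99.1, 98.9, 101 and 97.9 CPM, with 1 library inside the wild-type range of 101 to 107 (log2 fold change -0.08, edgeR adjusted p = 0.1). It was called lower without wild-type replicate 2. Psmc2, an ATPase of the base, stood at 104, 102, 106, 103 and 105 CPM in wild type and at 99.2, 98, 94.1, 99.9 and 98.7 CPM in the substituted libraries. It was the 1 member whose groups did not overlap (-0.08, adjusted p = 0.202), as was the case for 3.16% of all genes.

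The other members with the smallest p-values in this comparison had small differences. Psmg2, a chaperone of core assembly, stood at 18.3, 19.8, 19.3, 20.2 and 21.5 CPM in wild type and at 19.2, 17, 17.4, 17.2 and 17.9 CPM (log2 fold change -0.16, edgeR adjusted p = 0.206). Psmb1, of the beta ring, stood at 118, 108, 113, 112 and 113 CPM in wild type and at 108, 107, 108, 109 and 100 CPM (-0.09, adjusted p = 0.249). Psma4, of the alpha ring, stood at 90.1, 90.2, 91.9, 96.5 and 93.7 CPM in wild type and at 93.3, 87.1, 84.4, 87.2 and 85.4 CPM (-0.08, adjusted p = 0.385).

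Substituted replicate 1 lay within the wild-type range for both Psmg2 and Psma4. Psmd2 stood at 199, 199, 212, 210 and 205 CPM in the substituted libraries, overlapping wild type (log2 fold change -0.06, edgeR adjusted p = 0.41). Of the 44 constitutive members 35 had a value below 0, with a median of -0.03 against 0.01 over all genes. With library totals in place of TMM factors 31 were below 0 and the median was -0.02. The intervals of the 31 subunits of rings, base and lid lay between -0.156 and 0.153.

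The direct comparison of ATXN1[82Q] with the substituted transgene tests whether the 2 transgenic groups differ. Psmb10 was 1.18-fold, Psmb8 1.33-fold and Psmc5, an ATPase of the base, 1.07-fold higher in ATXN1[82Q]. Psme4 was 1.1-fold lower, and Psmd11 fell by 0.11 on the log2 scale. These were 5 of 47 members (10.6%), where edgeR called 28.1% of all genes (13.5% higher and 14.6% lower). Before adjustment 9 members and 40.2% of all genes had p below 0.05. How strongly each transgene was expressed is not known from these counts, so its level and the substitutions cannot be told apart.

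Psmb8 was higher in every ATXN1[82Q] library (2.34 to 3.47 CPM) than in every substituted library (1.74 to 2.33 CPM), by a narrow margin between the closest libraries, as was the case in either direction for 17.9% of all genes (log2 fold change 0.41, SE 0.136, edgeR adjusted p = 0.0318). Leaving out ATXN1[82Q] replicate 3 gave 0.29 (adjusted p = 0.0951), and leaving out substituted replicate 2, 3 or 5 gave 0.38, 0.39 and 0.37 (adjusted p = 0.0706, 0.0686 and 0.0781). Psmb10 overlapped, since substituted replicate 4 (18.9 CPM) was above 4 of the ATXN1[82Q] libraries (0.24, SE 0.0705, adjusted p = 0.0186). Its call was lost without ATXN1[82Q] replicate 5 (0.2, adjusted p = 0.0534) or substituted replicate 2 (0.19, adjusted p = 0.0521). Psmb9 did not pass (0.45, adjusted p = 0.154).

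Psmc5 stood at 170, 159, 162, 163 and 166 CPM in wild type, at 158, 171, 172, 163 and 175 CPM in ATXN1[82Q] and at 159, 151, 151, 166 and 153 CPM with the substituted transgene. The transgenic groups overlapped and lay on either side of the wild-type mean (log2 fold change 0.1, SE 0.0338, edgeR adjusted p = 0.0299). The call was lost without ATXN1[82Q] replicate 2, 3 or 5 or substituted replicate 2, 3 or 5, with log2 fold changes of 0.0913 to 0.0969 and adjusted p-values from 0.0603 to 0.0791.

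Psme4 stood at 107, 106, 104, 105 and 109 CPM with the substituted transgene, above each ATXN1[82Q] library. Such a separation, in either direction, was found for 17.9% of all genes. Psme4 was called lower in ATXN1[82Q] (log2 fold change -0.14, SE 0.0477, edgeR adjusted p = 0.0336). That call was lost without ATXN1[82Q] replicate 4 or 5 or substituted replicate 1, 2 or 5, with log2 fold changes of -0.144 to -0.0985 and adjusted p-values from 0.057 to 0.0989. Psmd11 stood at 68.7, 63.5, 66.5, 67.2 and 69.2 CPM with the substituted transgene, and substituted replicate 2 overlapped ATXN1[82Q] (-0.11, SE 0.0388, adjusted p = 0.0434). Its call was lost without ATXN1[82Q] replicate 1, 4 or 5 or substituted replicate 1, 3, 4 or 5, with log2 fold changes of -0.118 to -0.0784 and adjusted p-values from 0.051 to 0.138. All 5 calls of this comparison were lost without replicates 2 and 5 of ATXN1[82Q] together (adjusted p from 0.0543 to 0.219) and with libraries of Ttr under 100 CPM alone (0.118 to 0.284). The log2 fold change of Psmb8 was larger in both, at 0.46 (SE 0.161) and 0.52 (SE 0.239), and that of Psmd11 was -0.0887 and -0.115. In the same order Psmb10 was at 0.18 and 0.2, Psmc5 at 0.07 and 0.09 and Psme4 at -0.12 and -0.1.

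Of the other members with the smallest p-values here, Psme1 stood at 21, 22.9, 20.9, 23.4 and 20 CPM with the substituted transgene, overlapping both other groups (log2 fold change 0.19, edgeR adjusted p = 0.0591). Psme3 stood at 120, 124, 129, 124 and 121 CPM in wild type, at 119, 120, 116, 120 and 123 CPM in ATXN1[82Q] and at 129, 127, 124, 122 and 124 CPM with the substituted transgene (-0.07, adjusted p = 0.0611). Psmd7, a lid subunit, stood at 103, 97.2, 102, 98.3 and 100 CPM in wild type, at 103, 100, 105, 107 and 102 CPM in ATXN1[82Q] and at 103, 97.7, 97.1, 101 and 96.6 CPM with the substituted transgene (0.06, adjusted p = 0.109). In these 3 genes the libraries of the transgenic groups overlapped. Psme1 was called higher without ATXN1[82Q] replicate 1 or 2, and Psme1, Psmb3, Psmb4 (higher) and Psme3 (lower) were called without substituted replicate 4. Over the 44 constitutive members the median was 0.03 with 26 above 0. With library totals it was 0.09, with 38 above 0 and 20 of the 47 members called higher, while the median of all genes moved from 0.01 to 0.07.

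Genes that work with the proteasome were read from lists chosen for their function, and their counts stand against 16.6% of all genes higher and 14.9% lower in ATXN1[82Q] against wild type. In ATXN1[82Q] against wild type, 1 of 10 partners of the particle fell, the proteasome-bound ubiquitin ligase Ube3c (1.12-fold), with a list median of -0.03. Of 7 regulators of proteasome genes and of protein disposal at the endoplasmic reticulum, 1 rose, the stress factor Nfe2l2, from 32.3 ± 2.18 to 41.8 ± 1.44 CPM (SD, n = 5; 1.29-fold, edgeR adjusted p = 1.82e-05), with a median of -0.09. Of 12 genes of ubiquitin and its shuttles, 2 rose, Uchl1 (1.54-fold) and Sqstm1 (1.07-fold). The shuttle genes Rad23b, Ubqln2 and Ubqln1 fell (1.13-, 1.1- and 1.07-fold; list median -0.02). No gene of these lists passed with the substituted transgene against wild type in edgeR, with 5 of the 29 at an unadjusted p under 0.05 (11.7% of all genes).

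Interferon and antigen presentation genes were the list in which most members rose. In ATXN1[82Q] against wild type 9 of 12 rose and 1 fell, with a median of 0.43 against 0.01 over all genes, of which 16.6% rose and 14.9% fell. The class I transactivator Nlrc5 rose 2.13-fold, Irf8, a factor of microglia, 1.96-fold, B2m, the class I light chain, from 68.8 ± 5.8 to 98.5 ± 6.89 CPM (SD, n = 5), and the loading factor Tapbp 1.29-fold. Tap1, the peptide transporter gene that overlaps Psmb9, rose 1.56-fold. H2-D1 fell 1.58-fold, with the smallest adjusted p of the list (edgeR adjusted p = 1.78e-07), and H2-K1 rose 1.36-fold. Near-identical H2 genes can split reads, which makes both values uncertain and was not tested for either gene. With the substituted transgene H2-D1 fell 1.18-fold (edgeR adjusted p = 0.0366) and no other gene of the list passed. In ATXN1[82Q] against the substituted transgene 8 of 12 were higher and 1 lower (median 0.33), against 13.5% and 14.6% of all genes.

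In that last comparison the other lists also held calls, where 28.1% of all genes were called. Among partners Ube3c and AI314180, the older symbol of Ecpas, were lower. Among regulators Nfe2l2 was 1.29-fold higher, and Ddi2, the protease that activates NFE2L1, Herpud1 and Sel1l were lower (1.28-, 1.12- and 1.14-fold). Among the ubiquitin genes Uchl1 and Rps27a were higher, and Ubqln2, Rad23b and Ubqln1 were lower.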

How the data were processed

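Cerebellar RNA of 15 libraries was measured, 5 per genotype; groups came from the genotype labels. Per the labels' protocols, cDNA was amplified from 10 ng of total RNA with poly(A) and random priming. Per the submitters' processing notes, the authors used STAR 2.5.3a, mm10, HTSeq and DESeq2; the deposited values are whole-number counts, not normalised. For the counting, no strand setting, mode or annotation is given in the sources used here. Entries for reads outside genes (16.8% to 18.2%), in several genes (1.18% to 1.25%) or aligned at several places (12.8% to 14.6%) were left out.

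The main test was the quasi-likelihood test of edgeR 4.0.16 (R 4.3.3). One model held the 15 libraries with genotype as its only factor, TMM factors (0.968 to 1.04), filterByExpr at a minimum count of 10, and Benjamini-Hochberg adjustment over 15843 genes. CPM were TMM-scaled; log2 CPM used a prior count of 2. Exon lengths came from GENCODE M21. A further promoter motif was searched and is not reported here. The fit was tested on simulated data. Since no molecular identifiers were used, amplified reads are not separate molecules. No pair of libraries within a genotype was a duplicate (chi-square per degree of freedom 5.7 to 40.6 over 30 pairs). Alternatives were DESeq2 1.42.0, RLE factors, no filter, only the genotypes compared, a replicate block, each library left out, and libraries chosen by Ttr or brainstem markers; the alternative with library totals was chosen after seeing the data.

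The members and lists were chosen with earlier results of these data known. Given per library were Psmb8, Psmb9, Psmb10, members called in any comparison and, per comparison, the 6 other members with the smallest adjusted p. Other members named with single values were chosen after their values were seen. Figures were drawn with Python 3.11.15.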

Additional observations from a re-analysis of the deposited data

Results flagged for a closer look

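Among the 48 sets of 5 libraries given by 16 genes and 3 genotypes, 5 had 1 library far from the other 4. Chance gives about 1 in 20 for independent sets. The 16 genes were chosen in part by their p-values in these data and share the same 15 libraries. The 2 rates therefore cannot be set against each other. Psmb8 in ATXN1[82Q] replicate 3 was at 3.47 CPM, with the others at 2.34 to 2.62. In the same library Psmc2 was at 107 CPM, with the others at 98.4 to 99.2. Psmd11 in ATXN1[82Q] replicate 5 was at 57.5 CPM, with the others at 62.7 to 63.8. Psme4 in wild-type replicate 5 was at 93.3 CPM, with the others at 106 to 110. Psmb1 in substituted replicate 5 was at 100 CPM, with the others at 107 to 109.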

How the results depend on the processing

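Psmb8 in ATXN1[82Q] against wild type was called in all 18 alternatives (log2 fold change 0.51 to 0.83, edgeR or DESeq2 adjusted p from 0.000502 to 0.0244). In that comparison 3 members were higher, 3 to 4 with single libraries left out, 1 with Ttr under 100 CPM alone and 12 with library totals. Lower calls, 0 in the fit as reported, were 1 with DESeq2, RLE factors, the replicate block or Ttr under 100 CPM alone, and 0 to 2 with single libraries left out. With the substituted transgene against wild type lower calls were 1 with DESeq2 and 0 to 1 with single libraries left out, and higher calls were 0 in all 17 alternatives. In ATXN1[82Q] against the substituted transgene, the 3 higher and 2 lower calls became 0 and 0 with Ttr under 100 CPM alone or without ATXN1[82Q] replicates 2 and 5, where Psmb8 had larger log2 fold changes (0.522 and 0.462, against 0.412) with larger SEs. They became 20 and 0 with library totals and 4 and 3 with DESeq2, which added Psme1 and Psme3. With single libraries left out they were 0 to 6 and 0 to 2, and lower calls were 1 without the count filter or with only the 2 genotypes compared. The near-zero value of Psmb10 with the substituted transgene against wild type (-0.00104) became 0.00137 with only these genotypes in the fit and 0.0112 with library totals, and ran from -0.0655 to 0.0478 with single libraries left out. The value of Psmb9 there ran from -0.0318 without wild-type replicate 4 to 0.315 without wild-type replicate 5. The causes were not tested.

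The replicate block left 1 higher call (Psmb10) and 1 lower call (Psme4) in ATXN1[82Q] against the substituted transgene, and added 1 lower call (Psme4) in ATXN1[82Q] against wild type. The replicate numbers showed no pairing: 4 of 15 same-number pairs correlated above 0.1 (median -0.109), and 3 of 15 libraries correlated best with their own number. Psmb9 had 13 to 47 counts per library, with a coefficient of variation of 37.1% in wild type and 7.05% in ATXN1[82Q]; the part of depth was not tested.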
